A study of Mus musculus with 12 samples.

Results

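The core circadian clock is a transcriptional feedback loop that runs in most cells, and 10 of its genes are described here in BV2 cells, an immortalized mouse microglial line. The genes were chosen by name, Per1, Per2, Per3, Cry1, Cry2, Nr1d1, Nr1d2, Dbp, Tef and Clock, out of 21834 protein-coding genes in the deposited count table, and all 10 reached the expression minimum for testing (0.5 CPM, counts scaled by library size, in at least 3 libraries), as did 11626 genes in all. RNA was sequenced from 4 groups with 3 libraries each. They were cells stably expressing a control shRNA without treatment (shCtrl-CTRL) or after oxygen-glucose deprivation and reoxygenation (shCtrl-OGDR), and cells stably expressing an shRNA against Anxa2, the gene of annexin A2, without treatment (shAnxa2-CTRL) or after the same procedure (shAnxa2-OGDR). OGD/R is a culture model of ischemia and reperfusion in which cells are held in glucose-free medium under low oxygen and then returned to normal medium with oxygen, per the labels for 4 h and 12 h, while the study's methods describe a longer reoxygenation. All 4 groups carry a lentiviral shRNA construct and were selected with puromycin, with 1 shRNA per line, and whether a line was a clone or a pool is not given in the sources used here.

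In the loop, CLOCK pairs with BMAL1 (gene Arntl) and binds E-boxes in the promoters of the Per and Cry genes, whose proteins return to the nucleus and inhibit that pair. A second loop runs through the nuclear receptors REV-ERBα and REV-ERBβ (Nr1d1 and Nr1d2), which repress Arntl and compete with the ROR activators for the same elements. DBP and TEF are PAR bZIP factors, outputs of the loop that activate genes through D-boxes, where NFIL3 acts as a repressor. A change of medium or serum, glucocorticoids and the time of day are known to shift these transcripts. Treated cells had their medium changed at the start of deprivation and of reoxygenation. The clock time of harvest and any change of medium in the untreated cells are not given in the sources used here, so their part cannot be told apart from that of OGD/R.

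Promoter sequences are shown because the members differ in which clock elements lie next to their start sites, and 4 were picked to show them. The RefSeq promoter table (build GRCm38.p6) held windows for 9 of the 10 genes, none for Per2, with more than 1 window for some. Each window spans 300 bases, from 250 before to 50 after a transcription start. Both strands were searched for the E-box CACGTG, the variant E-box CACGTT, the D-boxes TTACGTAA and TTATGTAA, the cAMP response element TGACGTCA and the ROR and REV-ERB response element in an A form and a G form. Of 32851 mouse promoter windows of the same length, 7.15% held CACGTG, 4.68% CACGTT, 0.119% TTACGTAA, 0.938% TTATGTAA, 1.79% TGACGTCA, 0.219% the A form and 0.216% the G form of the response element. Per3 held TTATGTAA at 2 places, Cry1 held CACGTG and CACGTT, and Per1 and Tef held CACGTG. Tef held it in both of its windows, and Per1 in the first of its 2 windows only. Cry2 and Nr1d1 each held CACGTT, and no window of Nr1d2, Dbp or Clock held any of the motifs. The 250 bases before the start are printed 5′ to 3′ on the gene's own strand for the first window of 4 genes, with every match in capitals (CACGTT on the opposite strand reads AACGTG). A match is a run of letters in these windows and not a measured binding site.

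Per3, chr4:151044666-151044915, minus strand: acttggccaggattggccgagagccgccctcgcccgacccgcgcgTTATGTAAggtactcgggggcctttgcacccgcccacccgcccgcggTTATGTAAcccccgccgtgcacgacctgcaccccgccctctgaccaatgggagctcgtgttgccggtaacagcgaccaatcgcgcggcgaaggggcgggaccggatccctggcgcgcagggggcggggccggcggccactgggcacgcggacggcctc

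Cry1, chr10:85185055-85185304, minus strand: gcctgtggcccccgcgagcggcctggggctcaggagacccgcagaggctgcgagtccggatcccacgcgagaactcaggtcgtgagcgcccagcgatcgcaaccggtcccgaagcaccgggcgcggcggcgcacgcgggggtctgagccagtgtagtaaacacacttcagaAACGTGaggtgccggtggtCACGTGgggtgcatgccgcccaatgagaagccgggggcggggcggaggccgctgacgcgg

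Per1, chr11:69098699-69098948, plus strand: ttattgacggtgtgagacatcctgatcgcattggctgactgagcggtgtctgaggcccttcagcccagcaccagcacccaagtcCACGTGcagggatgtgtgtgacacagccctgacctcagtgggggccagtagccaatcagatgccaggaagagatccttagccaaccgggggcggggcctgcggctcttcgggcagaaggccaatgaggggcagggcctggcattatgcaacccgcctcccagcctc

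Tef, chr15:81802423-81802672, plus strand: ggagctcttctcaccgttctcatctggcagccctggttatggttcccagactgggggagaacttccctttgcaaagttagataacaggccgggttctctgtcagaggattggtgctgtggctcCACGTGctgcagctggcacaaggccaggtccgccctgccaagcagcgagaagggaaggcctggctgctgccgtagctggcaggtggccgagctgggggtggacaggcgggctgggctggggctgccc

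**Figure D1:**
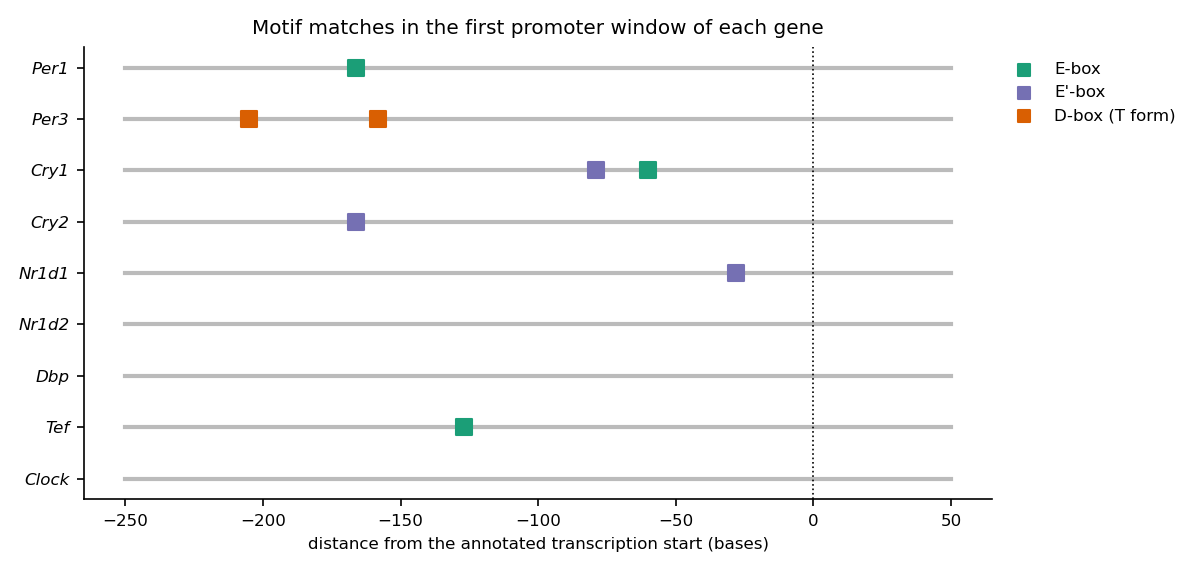
Motif matches in the first promoter window of the 9 genes with a RefSeq window, as distance in bases from the annotated transcription start (dotted line at 0); grey lines are the windows and squares the start of each match. Per3 carries its pair of D-box matches at -205 and -158, and the lines of Nr1d2, Dbp and Clock are empty.

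Libraries held 19521877 to 27288843 counts. Anxa2 was at 164 to 177 CPM in shCtrl-CTRL and 251 to 294 CPM in shCtrl-OGDR, and at 35.0 to 44.4 CPM in shAnxa2-CTRL and 18.2 to 20.6 CPM in shAnxa2-OGDR, so each library matched the line in its name. The samples' cell type label follows the treatment and not the line, and the names were used for grouping. By these names Anxa2 rose 1.62-fold after OGD/R in shCtrl cells and fell 2.06-fold in shAnxa2 cells, where the shRNA targets it. Its level alone does not settle the treatment label within the shAnxa2 line. Whether the names of the treated and untreated groups of that line were exchanged was not tested. An exchange would turn the sign of every OGD/R change given for shAnxa2 cells, and every comparison between lines would then set other groups against each other. Over all genes tested, 5240 passed the test after OGD/R in both lines, and 5165 of them (98.6%) moved in opposite directions. Csf1r, Cd68, Ptprc, Trem2 and Tyrobp averaged 156 to 485 CPM, while Cx3cr1, P2ry12, Tmem119 and Fcrls, markers of microglia in the brain, averaged 0.943 to 5.65 CPM. The microglia markers Aif1 and Itgam were low too, at means of 4.2 and 14.1 CPM. The summed level of 11 microglia markers was 1640 to 1750 CPM in shCtrl-CTRL, 1480 to 1610 CPM in shCtrl-OGDR, 1360 to 1450 CPM in shAnxa2-CTRL and 1490 to 1520 CPM in shAnxa2-OGDR. Neuron markers summed to 1.33 CPM and astrocyte markers to 0.97 CPM at most, with Syt1, Snap25 and Aqp4 at 0 in every library. Oligodendrocyte markers, mainly Mbp, summed to 5.63 to 6.3 CPM in shCtrl-OGDR and 3.97 to 4.17 CPM in shAnxa2-OGDR, with Mog at 0. The part of these marker differences in the clock gene results was not tested. The study's methods call the replicates of each line biological, and whether these were separate cultures is not given in the sources used here, so p-values measure the spread between these libraries. In bulk RNA, fewer cells expressing a gene and less of its RNA per cell cannot be told apart.

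Levels of different genes were set side by side per length of exon. In shCtrl-CTRL, Cry1 was highest with 15.9 ± 0.541 CPM per kb (SD, n = 3), ahead of Per1 at 6.74 ± 0.79 and Tef at 4.89 ± 0.152 CPM per kb. Clock at 3.89 ± 0.16 and Nr1d2 at 3.7 ± 0.167 CPM per kb followed, and the ranges of 1 SD around these neighbours overlapped. Cry2 at 2.54 ± 0.165, Dbp at 1.7 ± 0.274 and Nr1d1 at 1.01 ± 0.0411 CPM per kb came next. Per3 at 0.719 ± 0.104 and Per2 at 0.675 ± 0.108 CPM per kb closed the order, and their ranges overlapped too. Per2 rested on 41 to 119 counts per library, Nr1d1 on 60 to 96 and Dbp on 67 to 328, and the other 7 genes on 153 or more.

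**Figure D2:**
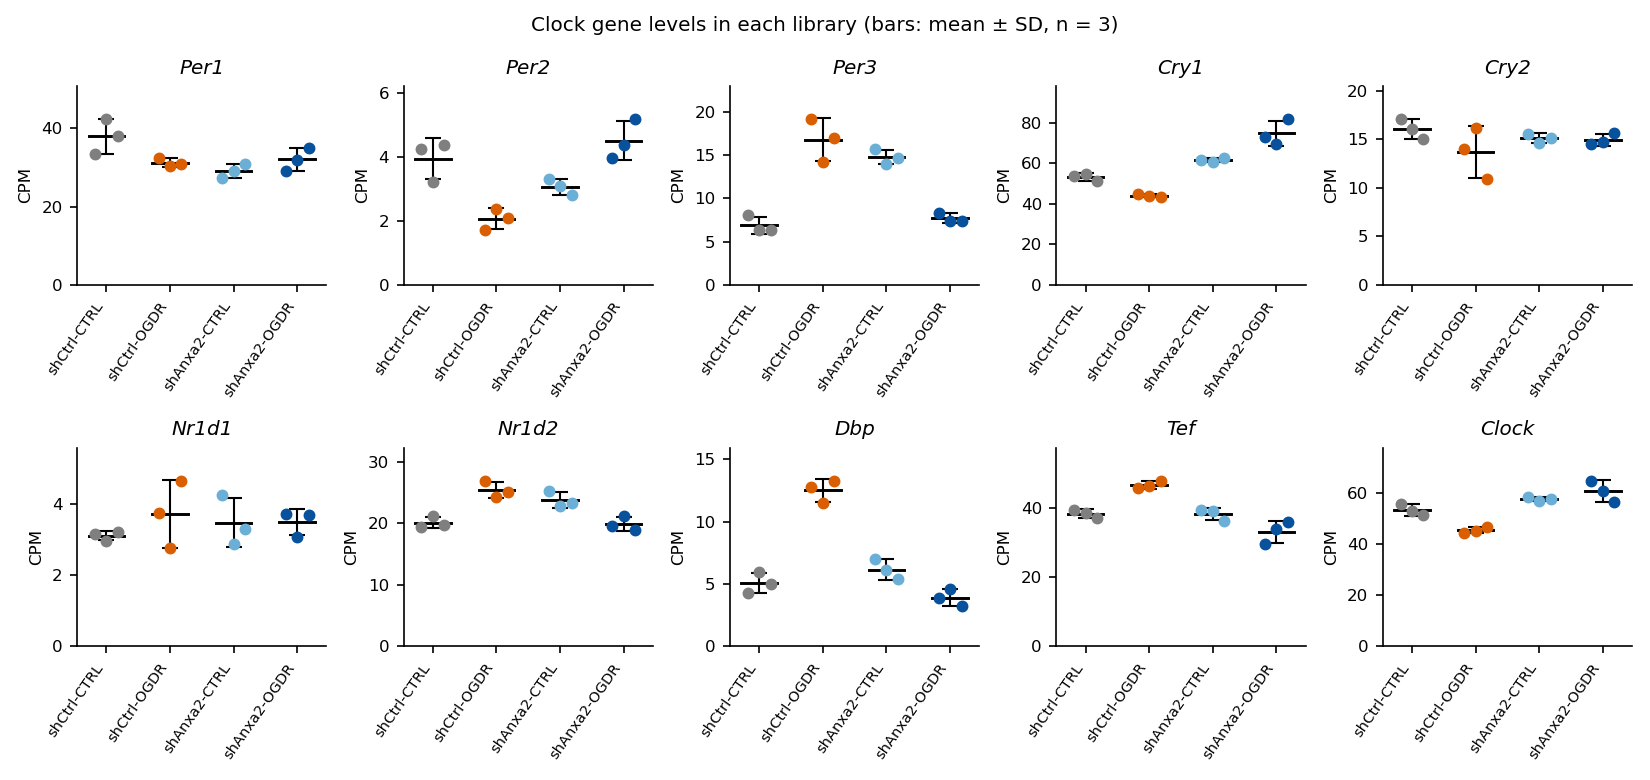
Level of each clock gene in each library in CPM (y axis, linear from 0), by group, with points for libraries, a line for the group mean and bars for the SD (n = 3). Per3 and Dbp stand highest in shCtrl-OGDR, Per2 stands lowest there, the 4 groups of Cry1 do not overlap, and those of Nr1d1 do.

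After OGD/R, shCtrl cells carried more Per3 and Dbp RNA, each more than 2-fold, with small rises of Nr1d2 and Tef, while Per2, Per1, Cry1 and Clock fell. In all, 4 of the 10 genes rose and 4 fell at an adjusted p under 0.05, where 32.4% of all genes tested rose and 31% fell. Per3 and Dbp also passed the 2-fold limit (unadjusted p under 0.05 with a log2 fold change of 1 or more either way), as did 6.86% of all genes. In shAnxa2 cells OGD/R went with 2 rises (Per2 and Cry1) and 4 falls (Per3, Dbp, Nr1d2 and Tef), against 28.2% of all genes rising and 26.8% falling. There none of the 10 passed the 2-fold limit, which 3.8% of all genes did (edgeR gave 6 of the 10 an unadjusted p under 0.05, and DESeq2 also put 0 past this limit). The median absolute log2 fold change of the 10 genes was 0.282 in shCtrl and 0.232 in shAnxa2 cells, beside 0.299 and 0.244 for all genes tested.

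Between lines without treatment, the shAnxa2 line had more Per3, Cry1 and Nr1d2 and less Per1 than the shCtrl line, 3 and 1 of the 10 genes, where 29.5% of all genes were higher and 29.7% lower. Per3 alone passed the 2-fold limit, as did 5.81% of all genes. After OGD/R, Per2, Cry1 and Clock were higher and Per3, Dbp, Nr1d2 and Tef lower in shAnxa2 cells, 3 and 4 of the 10 against 33.8% and 34.2% of all genes. Here Per2, Per3 and Dbp passed the 2-fold limit, as did 10.2% of all genes. The OGD/R change differed between the lines for 8 of the 10 genes when the difference itself was tested (interaction), more positive in shAnxa2 cells for 4 and more negative for 4, beside 34.9% and 35.1% of all genes. For 3 of them the difference was at least 2-fold, as it was for 21.7% of all genes. At an adjusted p under 0.05 the shares of clock genes lay near those of the whole table and are no result about these genes as a group, so each is described below by its role.

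**Figure D3:**
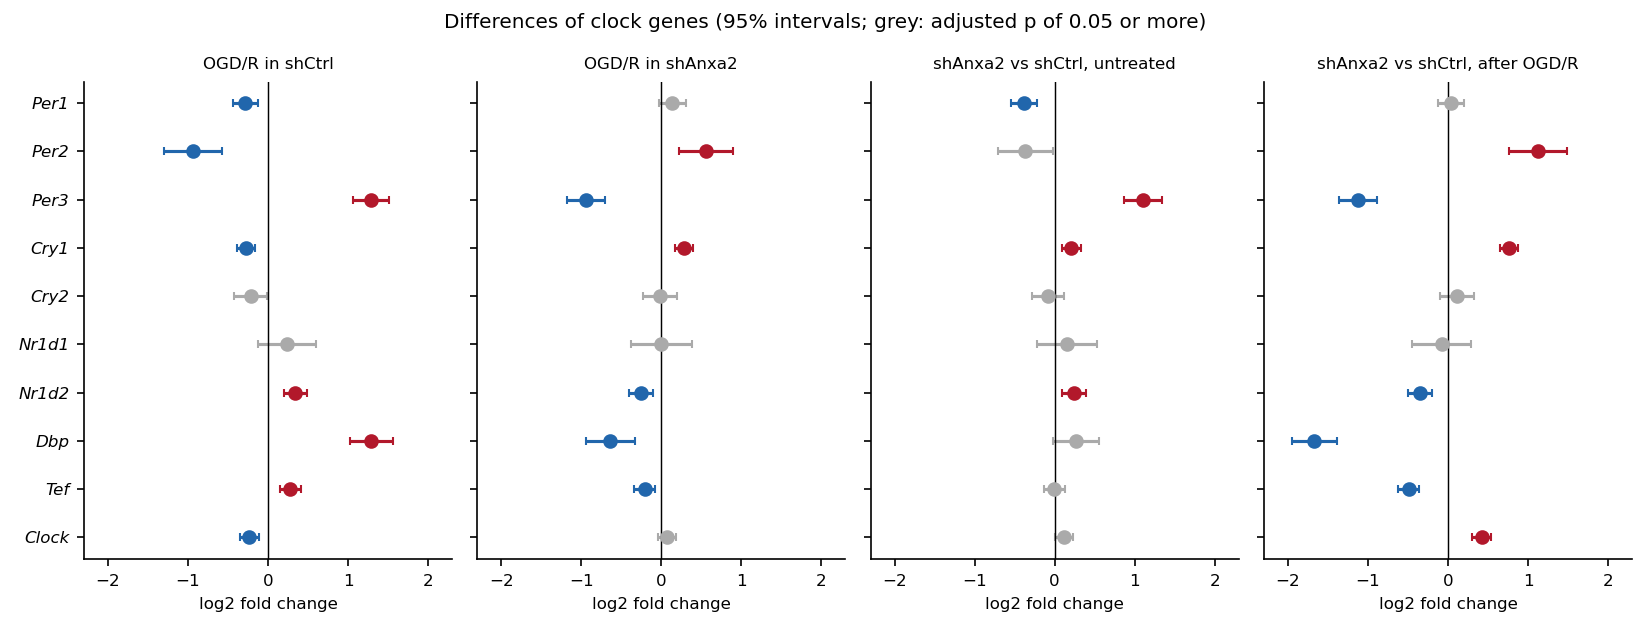
Log2 fold change of each clock gene in the 4 comparisons between groups, with normal 95% intervals; red is higher and blue lower at an adjusted p under 0.05, grey did not pass. Per3 and Dbp sit right of 0 for OGD/R in shCtrl cells at 1.29 each and left of 0 in shAnxa2 cells at -0.94 and -0.64.

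Clock (ENSMUSG00000029238, minus strand of chromosome 5 from 76357715 to 76452639 in the table's coordinates, mm39 per the submitters' processing notes, as for all genes below) encodes the DNA-binding activator of the loop. It stood at 55.7, 53.1 and 51.3 CPM in shCtrl-CTRL and at 44.5, 45.2 and 46.7 CPM in shCtrl-OGDR. In shAnxa2 cells it stood at 58.5, 57.1 and 57.7 CPM without treatment and at 64.9, 60.9 and 56.5 CPM after OGD/R. The shCtrl-OGDR libraries were the lowest of all, and the groups of the shAnxa2 line overlapped. Clock fell by 14.9% in OGD/R-treated shCtrl cells, to a log2 fold change of -0.23 (SE 0.0581, adjusted p = 0.00126, quasi-likelihood F test in edgeR, adjusted by Benjamini-Hochberg over all genes tested). In shAnxa2 cells the log2 fold change was 0.07 (95% interval -0.04 to 0.186, adjusted p = 0.296). After OGD/R, Clock was 1.34-fold higher in shAnxa2 than in shCtrl cells (log2 fold change 0.42, SE 0.0583, adjusted p = 8.08e-07), and without treatment the difference of 0.12 did not pass (adjusted p = 0.0884). The gene most like Clock over the 12 libraries was B4galt7, with a Pearson correlation of 0.966 of log2(CPM + 0.1) among 9508 genes of at least 5 CPM. All correlations given for likeness are descriptions over libraries that share their group differences. Many genes reached a correlation of 0.9 with most members: 125 for Clock, 387 for Per2, 283 for Cry1, 354 for Nr1d2, 495 for Dbp and 239 for Tef.

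The period genes encode inhibitors of the loop and did not move together. Per1 (ENSMUSG00000020893, plus strand of chromosome 11 from 68986043 to 69000786), also an immediate response gene to medium change and glucocorticoids, was at 33.5, 42.4 and 38.0 CPM in shCtrl-CTRL and 32.5, 30.3 and 30.8 CPM in shCtrl-OGDR. In the shAnxa2 line it was at 27.3, 29.1 and 30.9 CPM without treatment and 29.2, 31.9 and 35.1 CPM after OGD/R. The untreated shCtrl libraries were the highest but for an overlap with shAnxa2-OGDR. Per1 fell by 17.9% after OGD/R in shCtrl cells (log2 fold change -0.28, SE 0.0808, adjusted p = 0.00376), and without the second shCtrl-CTRL library the change was -0.19 with an adjusted p of 0.056. Without treatment it was 1.3-fold lower in the shAnxa2 line (log2 fold change -0.38, SE 0.0817, adjusted p = 0.000302). The OGD/R change in shAnxa2 cells was 0.14 (95% interval -0.026 to 0.303, adjusted p = 0.167), and the line difference after OGD/R was 0.04 (95% interval -0.123 to 0.202). Xpo6 was the gene most like Per1 over the libraries (r = 0.96), and 4 genes in all reached a correlation of 0.9.

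Per2 (ENSMUSG00000055866, minus strand of chromosome 1 from 91343704 to 91387046) had the lowest mean level per length in every group, though its range of 1 SD overlapped that of Per3 in shCtrl-CTRL and in shAnxa2-OGDR. It was at 4.26, 3.22 and 4.37 CPM in shCtrl-CTRL and 1.72, 2.37 and 2.1 CPM in shCtrl-OGDR. In shAnxa2 cells it was at 3.32, 3.08 and 2.82 CPM without treatment and 3.98, 4.37 and 5.19 CPM after OGD/R. Within each line the treated and untreated libraries did not overlap, with the treated ones lower in shCtrl and higher in shAnxa2 cells. The fall in shCtrl cells was 1.91-fold (log2 fold change -0.93, SE 0.183, adjusted p = 9.95e-05) and the rise in shAnxa2 cells 1.47-fold (0.56, SE 0.175, adjusted p = 0.00915). That rise was 0.45 with an adjusted p of 0.0573 without the third shAnxa2-OGDR library. After OGD/R, shAnxa2 cells held 2.19-fold more Per2 than shCtrl cells (log2 fold change 1.13, SE 0.184, adjusted p = 8.13e-06). The untreated difference of -0.36 (95% interval -0.705 to -0.024) had an adjusted p of 0.0748, and of 0.0271 without the second shCtrl-CTRL library. Lsm1 was the gene most like Per2 (r = 0.972).

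Per3 (ENSMUSG00000028957, minus strand of chromosome 4 from 151088109 to 151129122) went the other way. Its level was 8.06, 6.34 and 6.32 CPM in shCtrl-CTRL and 19.2, 14.2 and 17.0 CPM in shCtrl-OGDR. In shAnxa2-CTRL it was 15.7, 14.0 and 14.7 CPM and in shAnxa2-OGDR 8.37, 7.39 and 7.42 CPM. The libraries thus fell into a high and a low range with no value between 8.37 and 14.0 CPM, treated shCtrl cells with untreated shAnxa2 cells in the high range and the other groups in the low range. Per3 was 2.44-fold higher after OGD/R in shCtrl cells (log2 fold change 1.29, SE 0.118, adjusted p = 1.12e-09) and 1.92-fold lower in shAnxa2 cells (-0.94, SE 0.121, adjusted p = 5.57e-07). The knockdown line held 2.15-fold more without treatment (1.10, SE 0.12, adjusted p = 2.9e-08) and 2.18-fold less after OGD/R (-1.12, SE 0.119, adjusted p = 9.99e-09). The difference between the OGD/R changes was -2.23 on the log2 scale (SE 0.169, adjusted p = 2.32e-11). The whole Per3 span lies within that of Camta1 on the same strand, so reads shared by both cannot be told apart; Camta1, at a mean of 5.44 CPM, changed by 0.10 and 0.09 after OGD/R in the shCtrl and shAnxa2 lines (adjusted p = 0.534 and 0.574) and was higher in shAnxa2 cells by 0.42 in either condition. Prune1 was most like Per3 (r = 0.989), 1 of 698 genes at a correlation of 0.9 or more.

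Cry1 (ENSMUSG00000020038, minus strand of chromosome 10 from 84967564 to 85020928), the main partner of the period proteins in repressing CLOCK and BMAL1, was the only member whose 4 groups were fully separated. It was at 44.9, 44.0 and 43.1 CPM in shCtrl-OGDR, 53.6, 54.8 and 51.2 CPM in shCtrl-CTRL, 61.7, 60.4 and 62.3 CPM in shAnxa2-CTRL and 73.0, 69.6 and 81.7 CPM in shAnxa2-OGDR. In that order each range lies above the one before it. Cry1 fell by 17.3% after OGD/R in shCtrl cells (log2 fold change -0.27, SE 0.0597, adjusted p = 0.000315) and rose by 21.5% in shAnxa2 cells (0.28, SE 0.0582, adjusted p = 0.000253). It was higher in the shAnxa2 line both without treatment (1.16-fold, adjusted p = 0.00368) and after OGD/R (1.7-fold, log2 fold change 0.76, SE 0.0593, adjusted p = 4.36e-11). Ankrd13b was the gene most like it (r = 0.987).

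Cry2 (ENSMUSG00000068742, minus strand of chromosome 2 from 92233991 to 92264388), the other cryptochrome, passed no test. Its level was 17.1, 16.1 and 15.0 CPM in shCtrl-CTRL, 14.0, 16.2 and 10.9 CPM in shCtrl-OGDR, 15.6, 14.6 and 15.2 CPM in shAnxa2-CTRL and 14.5, 14.7 and 15.7 CPM in shAnxa2-OGDR. The shCtrl-OGDR group held both the lowest and the second highest library of the 12. With OGD/R the log2 fold change came to -0.22 in shCtrl cells (normal 95% interval -0.423 to -0.011, adjusted p = 0.0753) and -0.02 in shAnxa2 cells (-0.23 to 0.192, adjusted p = 0.895). The first interval leaves out 0 though the unadjusted p of the edgeR test was 0.0501, since normal intervals are slightly too narrow here. Without the second shCtrl-OGDR library the change in shCtrl cells was -0.35 with an adjusted p of 0.00753, the line difference after OGD/R 0.25 (0.0497) and the interaction 0.34 (0.046). No gene reached a correlation of 0.9 with Cry2, and the highest was Engase (r = 0.807).

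The REV-ERB receptors repress Arntl and several other clock genes. Nr1d2 (ENSMUSG00000021775, plus strand of chromosome 14 from 4230569 to 4265642) was at 19.4, 21.1 and 19.7 CPM in shCtrl-CTRL and 26.9, 24.3 and 25.0 CPM in shCtrl-OGDR. In shAnxa2 cells it was at 25.2, 22.8 and 23.3 CPM without treatment and 19.6, 21.1 and 18.9 CPM after OGD/R. As with Per3, treated shCtrl and untreated shAnxa2 libraries were the high ones, and no library of the other groups reached them. The rise in shCtrl cells was 1.27-fold (log2 fold change 0.34, SE 0.0753, adjusted p = 0.000348) and the fall in shAnxa2 cells 1.19-fold (-0.26, SE 0.0776, adjusted p = 0.00731). The line difference was 0.25 without treatment (SE 0.0762, adjusted p = 0.00754) and -0.35 after OGD/R (SE 0.0767, adjusted p = 0.000278). Efcab6 was most like Nr1d2 (r = 0.966).

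Nr1d1 (ENSMUSG00000020889, minus strand of chromosome 11 from 98658758 to 98666159) showed no such pattern. Its levels were 3.17, 2.97 and 3.2 CPM in shCtrl-CTRL, 3.75, 2.75 and 4.66 CPM in shCtrl-OGDR, 4.25, 2.89 and 3.3 CPM in shAnxa2-CTRL and 3.72, 3.06 and 3.69 CPM in shAnxa2-OGDR, and every group overlapped every other. With OGD/R the log2 fold change came to 0.24 in shCtrl cells (95% interval -0.129 to 0.604) and 0.00 in shAnxa2 cells (-0.38 to 0.381), so changes of the size seen for Nr1d2 lie within both intervals. Its span overlaps that of Thra, a thyroid hormone receptor gene on the opposite strand, over 1075 bases, and the sources used here do not say that counting used strand. Thra moved by 1.74 after OGD/R in shCtrl cells and by -1.36 in shAnxa2 cells (adjusted p = 9.2e-13 and 5.43e-10). Ndufa1 was the gene most like Nr1d1 (r = 0.825).

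Dbp (ENSMUSG00000059824, plus strand of chromosome 7 from 45354512 to 45359627) encodes the D-box activator that is a classic direct output of CLOCK and BMAL1. It was at 4.3, 5.93 and 5.0 CPM in shCtrl-CTRL and 12.8, 11.5 and 13.3 CPM in shCtrl-OGDR. In shAnxa2 cells it was at 6.99, 6.11 and 5.36 CPM without treatment and 3.88, 4.57 and 3.25 CPM after OGD/R. The treated shCtrl libraries stood alone, with 11.5 CPM in the lowest of them against 6.99 CPM in the highest of the other 9. Dbp was 2.45-fold higher after OGD/R in shCtrl cells (log2 fold change 1.29, SE 0.134, adjusted p = 9.98e-09) and 1.56-fold lower in shAnxa2 cells (-0.64, SE 0.157, adjusted p = 0.0013). After OGD/R the shAnxa2 line held 3.18-fold less Dbp than the shCtrl line (-1.67, SE 0.144, adjusted p = 2.81e-10), the largest line difference among the 10 genes. Without treatment the difference was 0.26 (95% interval -0.023 to 0.552, adjusted p = 0.125, and 0.0399 without the second shCtrl-CTRL library). Dbp overlaps Sphk2 on the opposite strand over 737 bases, and Sphk2, at a mean of 51.4 CPM, changed by 0.20 and 0.03 after OGD/R in the shCtrl and shAnxa2 lines. Cyria was most like Dbp (r = 0.983).

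Tef (ENSMUSG00000022389, plus strand of chromosome 15 from 81686622 to 81711064), the related D-box activator, moved the same way as Dbp but by less. It was at 39.5, 38.7 and 37.2 CPM in shCtrl-CTRL, 45.8, 46.4 and 48.0 CPM in shCtrl-OGDR, 39.6, 39.2 and 36.3 CPM in shAnxa2-CTRL and 29.7, 33.9 and 35.9 CPM in shAnxa2-OGDR. The treated shCtrl libraries were highest, the treated shAnxa2 libraries lowest, and the untreated groups of both lines covered the same range. Tef rose 1.21-fold in shCtrl cells (log2 fold change 0.28, SE 0.0658, adjusted p = 0.000705) and fell 1.15-fold in shAnxa2 cells (-0.21, SE 0.0687, adjusted p = 0.0134). The fall had an adjusted p of 0.0516 without the first shAnxa2-CTRL library and 0.109, with a change of -0.14, without the first shAnxa2-OGDR library. After OGD/R, Tef was 1.41-fold lower in the shAnxa2 line (-0.49, SE 0.0675, adjusted p = 6.86e-07), and without treatment the lines differed by -0.00 (95% interval -0.136 to 0.127). Hlf, the third PAR bZIP gene, had at most 1 count in any library and was not tested. Tmem154 was the gene most like Tef (r = 0.973).

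Across the 12 libraries, Per2 ran against Dbp (r = -0.934) and Nr1d2 (r = -0.898), Clock against Tef (r = -0.9), Per3 with Nr1d2 (r = 0.912), Dbp with Nr1d2 (r = 0.884) and Tef (r = 0.878), and Cry1 with Clock (r = 0.879). These coefficients describe 12 points in 4 groups that share their libraries. Of the members, 6 passed the test after OGD/R in both lines (Per2, Per3, Cry1, Nr1d2, Dbp and Tef), and all 6 moved in opposite directions, as did 98.6% of the genes of the whole table that passed in both. With the names of the shAnxa2 groups exchanged, these 6 would move the same way in both lines. As a root mean square of log2 differences over the 10 genes, shAnxa2-OGDR lay nearest to shCtrl-CTRL (0.248) and farthest from shCtrl-OGDR (0.797), and over all genes tested these distances were 0.354 and 0.636. The shAnxa2-CTRL group lay at 0.41 from shCtrl-CTRL and 0.432 from shCtrl-OGDR over the 10 genes, and at 0.52 and 0.397 over all genes tested. An exchange of names would exchange these distances with the ones before.

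**Figure D4:**
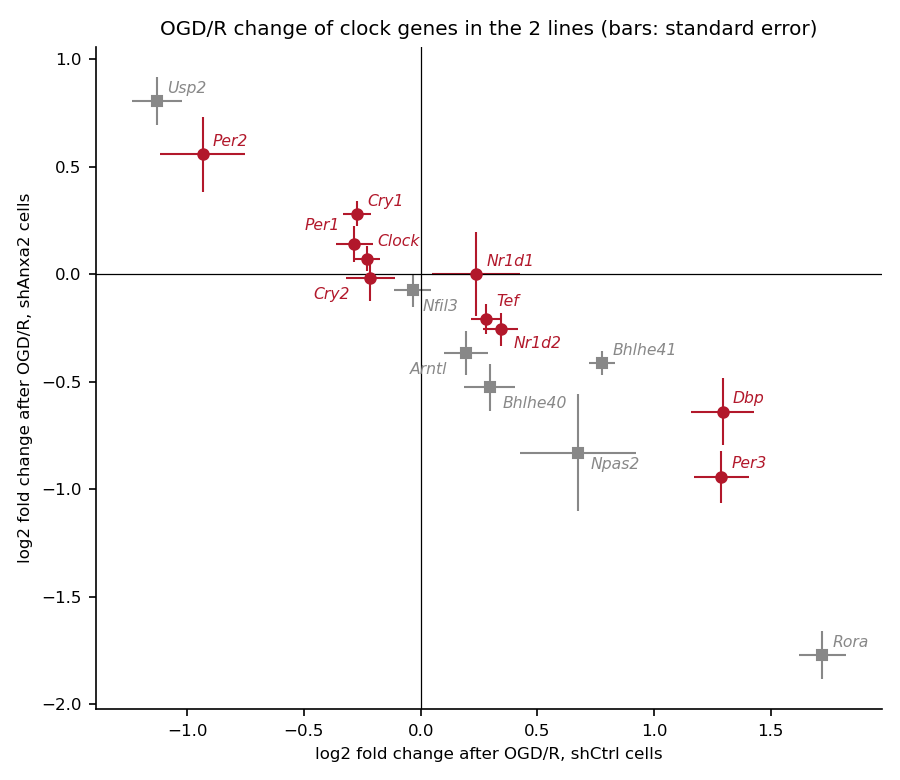
Log2 fold change after OGD/R in shCtrl cells (x axis) and in shAnxa2 cells (y axis) with standard errors, for the 10 clock genes (red circles) and 7 other clock genes (grey squares). Points fall from the upper left, with Usp2 and Per2, to the lower right, with Per3, Dbp and Rora, where Rora reaches 1.72 and -1.77.

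Of 24 other clock genes listed, 20 were tested, and Arntl2, Rorb, Hlf and Fbxl21 stayed under the minimum with at most 0.572 CPM. After OGD/R 8 rose and 5 fell in shCtrl cells (all genes: 32.4% and 31%), and 6 rose and 8 fell in shAnxa2 cells (28.2% and 26.8%). In shAnxa2 against shCtrl cells, 7 were higher and 5 lower without treatment (29.5% and 29.7% of all genes), and 5 higher and 10 lower after OGD/R (33.8% and 34.2%). The list's median log2 fold changes, 0.0708, -0.0913, 0.132 and -0.114 in these comparisons, compare with 0.00448, 0.00436, 0.000691 and -0.00335 over all genes tested. In both lines 11 of the 20 passed after OGD/R, all in opposite directions by these names, beside 98.6% of such genes in the whole table.

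Rora, an ROR activator that opposes the REV-ERB receptors on Arntl, moved more than any member in each of these comparisons. It was at 6.77, 5.83 and 6.21 CPM in shCtrl-CTRL, 20.9, 19.2 and 21.9 CPM in shCtrl-OGDR, 17.4, 16.6 and 16.4 CPM in shAnxa2-CTRL and 5.51, 4.17 and 5.19 CPM in shAnxa2-OGDR. The high and low groups were those of Per3. It rose 3.3-fold after OGD/R in shCtrl cells (log2 fold change 1.72, SE 0.102, adjusted p = 5.85e-13) and fell 3.41-fold in shAnxa2 cells (-1.77, SE 0.112, adjusted p = 6.68e-12). Usp2, a clock-controlled deubiquitinase gene, ran the opposite way, at 19.3, 20.1 and 18.9 CPM in shCtrl-CTRL, 7.47, 9.81 and 9.37 CPM in shCtrl-OGDR, 8.46, 9.09 and 7.82 CPM in shAnxa2-CTRL and 13.1, 16.5 and 14.5 CPM in shAnxa2-OGDR. After OGD/R it changed by -1.13 on the log2 scale in shCtrl cells (SE 0.107, adjusted p = 1.95e-09) and by 0.80 in shAnxa2 cells (SE 0.112, adjusted p = 1.84e-06).

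Arntl, which encodes the partner of CLOCK, was at 12.1 ± 1.08 CPM in shCtrl-CTRL, 13.8 ± 0.765 in shCtrl-OGDR, 12.5 ± 0.532 in shAnxa2-CTRL and, lowest, 9.71 ± 0.7 CPM in shAnxa2-OGDR (SD, n = 3). It fell in shAnxa2 cells (log2 fold change -0.37, SE 0.101, adjusted p = 0.00358) and changed by 0.19 in shCtrl cells (SE 0.0947, adjusted p = 0.0776). Npas2, a paralog of Clock, rose by 0.67 in shCtrl cells and fell by 0.83 in shAnxa2 cells on the log2 scale (adjusted p = 0.0214 and 0.0126) at 0.919 to 2.82 CPM. Bhlhe41 and Bhlhe40, repressors that bind E-boxes, rose by 0.78 and 0.30 after OGD/R in shCtrl cells (adjusted p = 1.27e-11 and 0.021) and fell by 0.41 and 0.53 in shAnxa2 cells (adjusted p = 1.12e-06 and 0.000289). Nfil3, the repressor at D-boxes, passed no test, with log2 fold changes of -0.03 and -0.08 after OGD/R and 0.16 and 0.12 between lines.

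Inputs known to shift clock genes were looked at through lists of their usual target genes. Of 10 immediate early genes that respond to serum and fresh medium, 8 were tested (Fosb and Egr1 stayed under the minimum). After OGD/R 6 were lower and 1 higher in shCtrl cells, where 31% of all genes were lower and 32.4% higher. In the shAnxa2 line 6 were higher and 1 lower, where 28.2% of all genes were higher and 26.8% lower. The list's median log2 fold change was -0.762 and 0.593, beside 0.00448 and 0.00436 for all genes tested. Between lines 1 was higher and 6 were lower without treatment (median -1.17, all genes 0.000691), where 29.5% and 29.7% of all genes were, and 4 were higher and 3 lower after OGD/R (median 0.37, all genes -0.00335), where 33.8% and 34.2% were. Fos fell by 2.32 on the log2 scale after OGD/R in shCtrl cells and rose by 0.83 in shAnxa2 cells (SE 0.144 and 0.149, adjusted p = 1.15e-12 and 4.76e-05), and Srf, which encodes the serum response factor, changed by -0.94 and 0.84. Atf3, which also responds to stress, went the other way with 1.01 and -0.60. The part of these genes in the clock gene results was not tested.

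Of 8 glucocorticoid-responsive genes, all tested, 1 rose and 3 fell after OGD/R in shCtrl cells (all genes: 32.4% and 31%) and 1 rose and 1 fell in shAnxa2 cells (28.2% and 26.8%). Tsc22d3, which encodes GILZ, rose by 0.73 in shCtrl cells and fell by 0.61 in shAnxa2 cells, while Fkbp5 changed by -0.65 and 0.38 (adjusted p = 2.12e-06, 0.000108, 2.65e-09 and 1.46e-05). Both genes are known targets of the glucocorticoid receptor. Between lines 3 were higher and 3 lower without treatment (29.5% and 29.7% of all genes), and 4 higher and 2 lower after OGD/R (33.8% and 34.2%). Cdkn1c had the list's largest line difference without treatment, 1.91 higher in shAnxa2 cells (SE 0.388, adjusted p = 0.000177, edgeR). Its OGD/R changes of 0.75 in shCtrl and -0.59 in shAnxa2 cells did not pass (adjusted p = 0.146 in each). The list's median log2 fold change was -0.0334 and 0.0368 for OGD/R in shCtrl and shAnxa2 cells, and -0.0147 and 0.4 between lines without and after treatment, beside the medians of all genes given above. The part of these genes in the clock gene results was not tested.

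**Figure D5:**
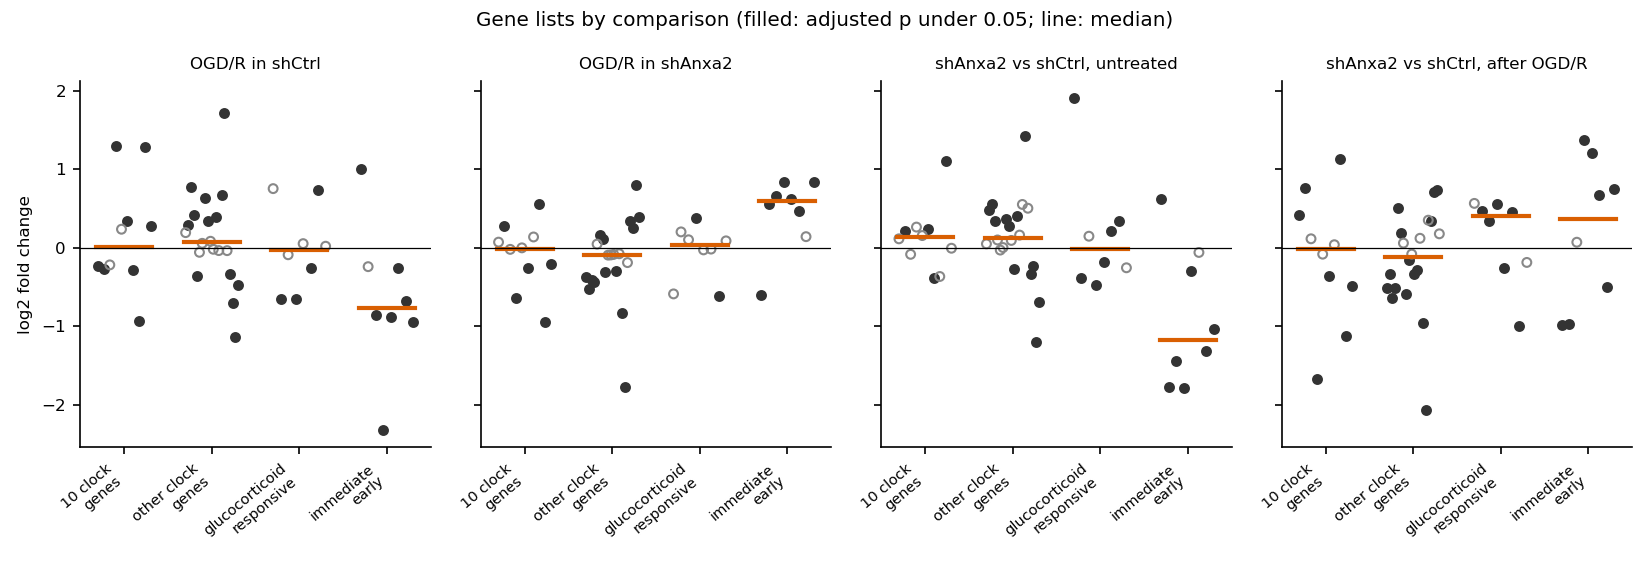
Log2 fold change of every tested gene of the 10 clock genes, the other clock genes, the glucocorticoid-responsive genes and the immediate early genes in the 4 comparisons between groups; filled points passed an adjusted p under 0.05, open ones did not, and orange lines are list medians. The immediate early genes lie mostly below 0 for OGD/R in shCtrl cells (median -0.762) and above 0 in shAnxa2 cells (median 0.593), while the median of the 10 clock genes is near 0 in both.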

How the data were processed

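RNA of 12 BV2 libraries in 4 groups of 3 was analysed, grouped by sample name. The authors deposited raw read counts for each gene; the submitters' processing notes name HISAT2 2.0.4 and mm39, and the counter used for the cells is not given in the sources used here. The table's 12 columns of normalized values were not used. The 10 members and all gene lists were chosen with earlier results of these data known.

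Counts were tested with edgeR 4.0.16 in R 4.3.3 (TMM scaling; 11626 genes reaching 0.5 CPM in 3 or more libraries; quasi-likelihood test in 1 fit of the 12 libraries; Benjamini-Hochberg over all genes), with the SE taken as the log2 fold change over the square root of F. The steps were tested on simulated counts. The microglia marker list held 1 further gene, which was left out of its sum and is not reported here. Exon lengths came from the GENCODE annotation of GRCm38, promoters from RefSeq. Replicate libraries differed by more than counting noise (chi-square per gene 4.00 to 13.3), which does not show whether they came from separate cultures. All members were named with, from the other lists, genes fixed by name, those past both limits, up to 3 genes of the input lists per comparison, and each member's best correlated gene. Alternatives were RLE factors, library totals, other filters, DESeq2 1.42.0, fits of only the groups compared, a replicate block, a fold limit of 1.5 and leaving out each library.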

Additional observations from a re-analysis of the deposited data

Results flagged for a closer look

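By the interaction test (edgeR, adjusted by Benjamini-Hochberg), the OGD/R change was more positive in shAnxa2 cells for 4 of the 10 members and more negative for 4. Of the 20 other clock genes tested, it was more positive for 5 and more negative for 10. Over all genes tested these shares were 34.9% and 35.1%. Among the members the difference, the log2 change in shAnxa2 minus that in shCtrl cells, was 0.42 for Per1, 1.49 for Per2, 0.55 for Cry1 and 0.30 for Clock. It was -2.23 for Per3, -0.60 for Nr1d2, -1.93 for Dbp and -0.49 for Tef. Of the other clock genes named in this report it was -3.49 for Rora, -1.50 for Npas2, -1.19 for Bhlhe41, -0.82 for Bhlhe40, -0.56 for Arntl and 1.93 for Usp2. Usp2 was named because it passed both limits in these data, and the rest of that list is not itemized. With 3 libraries per group, single outlying libraries could not be called.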

How the results depend on the processing

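Of 940 values of single genes under the alternatives, 931 kept their side of the threshold, and 4 lost and 5 gained significance. No value past the threshold changed sign, and 30 values that passed in neither fit did, for Nr1d1, Cry2, Tef and Per1, to sizes of 0.11 or less. The 9 changed calls came from leaving out 1 library and stand in the report beside their genes. Leaving out 1 library at a time, the number of members that rose after OGD/R in shAnxa2 cells was 1 to 2 (1 without the third shAnxa2-OGDR library, where Per2 no longer passed), and the number lower in the untreated shAnxa2 line was 1 to 2 (2 without the second shCtrl-CTRL library, which added Per2). By the same step, the number that fell after OGD/R was 3 to 5 in shCtrl cells and 3 to 4 in shAnxa2 cells. The number past the 2-fold limit in shCtrl cells was 2 to 3, where Per2 was the gene added. The number higher in the untreated shAnxa2 line was 3 to 4. With a fold limit of 1.5 in place of 2, 2 members passed after OGD/R in shAnxa2 cells, where 0 had passed. Other scalings moved the median of all genes by less than 0.04 on the log2 scale.

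With the replicate number as a block, no member's call changed, and the calls over all genes went from 7373 to 7355 for OGD/R in shCtrl cells and from 6392 to 6373 in shAnxa2 cells. Libraries of the same number correlated at -0.0513 to 0.135 in their deviations from the group means. Libraries of different numbers were not compared, so these values do not settle whether the numbers pair the samples. Depth limited Nr1d1 and Per2 most, at 60 to 96 and 41 to 119 counts per library.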

Other observations

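Rora lies on chromosome 9, plus strand, 68561068 to 69295528 (mm39), and Anxa2, the targeted gene, downstream of it on the same strand from 69360902 to 69399077, with 65373 bases and 1 gene of the table between them. Rora was 2.68-fold higher in untreated shAnxa2 than shCtrl cells (log2 fold change 1.42, adjusted p = 3.82e-11, edgeR) and 4.2-fold lower after OGD/R (-2.07, adjusted p = 3.88e-14). Anxa2 was lower in shAnxa2 cells in both conditions, by log2 fold changes of -2.09 and -3.83. By these names the Rora difference changed sign with treatment and that of Anxa2 did not. With the names of the shAnxa2 groups exchanged, Rora would be lower in shAnxa2 cells in both conditions. Its means would then be 4.96 against 6.27 CPM without treatment and 16.8 against 20.7 CPM after OGD/R. Such an exchange was not tested. These genes were set side by side after their values were seen, and a link between them was not tested.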
